A study of Mus musculus with 8 samples.

Results

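The mitochondrial ribosomal protein genes were taken as all protein-coding genes whose symbol begins with Mrpl or Mrps and a number. There were 78 of them among the 21775 coding genes used, 51 for proteins of the large subunit, 26 for proteins of the small subunit, and Mrps36. They were examined for peaks of Smad4, the common partner of the receptor-activated SMAD proteins, by chromatin immunoprecipitation and sequencing in activated mouse CD4+ T cells. Lists of called peaks from 4 libraries were used. The 2 knockout (KO) libraries came from CD4cre;Smad4fl/fl cells, in which Cre under the Cd4 promoter deletes floxed Smad4 once T cells develop, and the 2 wild-type (WT) libraries from WT cells. All cells were of the C57BL/6 background, came from spleen and lymph nodes, and were sampled 12 h into culture with IL-6 and a TGF-β receptor inhibitor. KO replicate 1 was labelled a pool of males and females, KO replicate 2 male and both WT replicates female, so sex and genotype cannot be told apart. The labels used here give no ages, do not give the Cre status of WT animals, and do not state that the replicates were different animals, so the spread between replicates may be technical.

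Mitochondrial ribosomes translate the few proteins encoded by mitochondrial DNA, all of them subunits of the respiratory chain and the ATP synthase. Their proteins are encoded in the nucleus, made in the cytosol and imported, so that respiratory capacity depends on the joint supply of many small, widely expressed genes. In T cells, activation is accompanied by growth of mitochondrial mass and a rise in mitochondrial translation. Many of these proteins have relatives in bacterial ribosomes, while others are found in mitochondria alone.

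The KO lists held 564 and 424 peaks in replicates 1 and 2, against 27120 and 19792 in the WT lists. The lists give positions without height or score, and the number of reads per library is not given in the sources used here. At Smad4 itself, the body and 10 kb on both sides held 1 and 0 KO peaks, against 5 and 3 WT peaks, and at Skil, a SMAD co-repressor gene, 1 and 1 KO peaks, against 7 and 7 WT peaks. Of 6 CD4 T cell marker genes all held, in the same window, a region called in both WT lists and in neither KO list. Among them, Cd247 also held 1 peak of each KO list. Such a region was held by 2 of 4 B cell, 0 of 4 myeloid and 0 of 3 hepatocyte markers, on peak positions alone. Over all coding genes it was 44.3%, or 48.6%, 41.1%, 46.4% and 42.8% when weighted to these 4 lists' gene lengths in the same order. The B cell share was thus near that of all coding genes. Peak calls from bulk chromatin do not separate fewer cells with Smad4 at a site from less Smad4 per cell.

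Smad4 peaks lay at the ends of most mitochondrial ribosomal protein genes in WT cells, and no KO peak lay at any of them. A gene end here means either bound of the gene in the annotation, and a peak was counted there if it came within 1 kb. KO replicates 1 and 2 had 0 and 0 peaks at the 78 genes' ends, against 64 and 56 distinct peaks in WT replicates 1 and 2. Over all coding genes, 0.409% and 0.175% had a peak of KO replicates 1 and 2 at an end, shares at which 78 genes may hold none. The ends of all coding genes had 79 and 36 peaks in KO replicates 1 and 2, against 7746 and 6687 in WT replicates 1 and 2. The far lower KO number was thus not particular to the members. At the members' ends, the KO libraries did not overlap the WT libraries. Their mean was 0 in KO, against 60 ± 5.66 peaks in WT (SD, n = 2 each), at least 20-fold lower in KO with a floor of 3 peaks per library, and the exact 2-sided permutation test over libraries gave p = 0.333, the smallest that 2 against 2 allows. Relative to list size, a lower share in KO was not detectable with lists this short. A count of 0 allows a share of up to 0.532% of KO replicate 1 and 0.708% of KO replicate 2, whereas the WT peaks at these genes were 0.236% (exact 95% interval 0.182% to 0.301%) and 0.283% (0.214% to 0.367%) of their lists. Intervals and floors cover counting error only.

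Of the 78 genes, 58 had a peak of WT replicate 1 and 52 a peak of WT replicate 2 at a gene end, against 36.7% and 32.7% of all coding genes, and 49 had both. In 49 (62.8%) the peaks of both WT lists met in a region that no KO peak touched, called a WT-only region here. Over all coding genes, 29.4% had a WT-only region at an end. Short genes hold fewer peaks, and the mitochondrial ribosomal protein genes had a median length of 7.69 kb, against 17.2 kb over all coding genes. Weighting the coding genes to the members' 10 groups of length gave 27.9%, or 35.0 percentage points less than the members' share. All coding genes include many that are silent in T cells, and neither share was matched on activity.

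With the body and 10 kb on both sides counted, 58 of the 78 genes (74.4%) held a WT-only region, against 44.3% of all coding genes and 41.5% after weighting by length. KO replicates 1 and 2 had 0 and 1 peaks there, against 112 and 97 in WT replicates 1 and 2 (exact 2-sided permutation p = 0.333). Among all coding genes, 1.87% and 1.16% held a peak of KO replicates 1 and 2 there. The KO peak lay in Mrps28, whose product is a small-subunit protein with a bacterial relative. It was 298 bp wide (chromosome 3, 8845697 to 8845994), lay 43.6 kb inside this long gene, and fell in a region called in both WT lists (8845433 to 8846308). A KO peak in the body or within 10 kb was found at 1.28% of the members, against 2.42% of all coding genes and 1.58% after weighting by length.

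**Figure D1:**
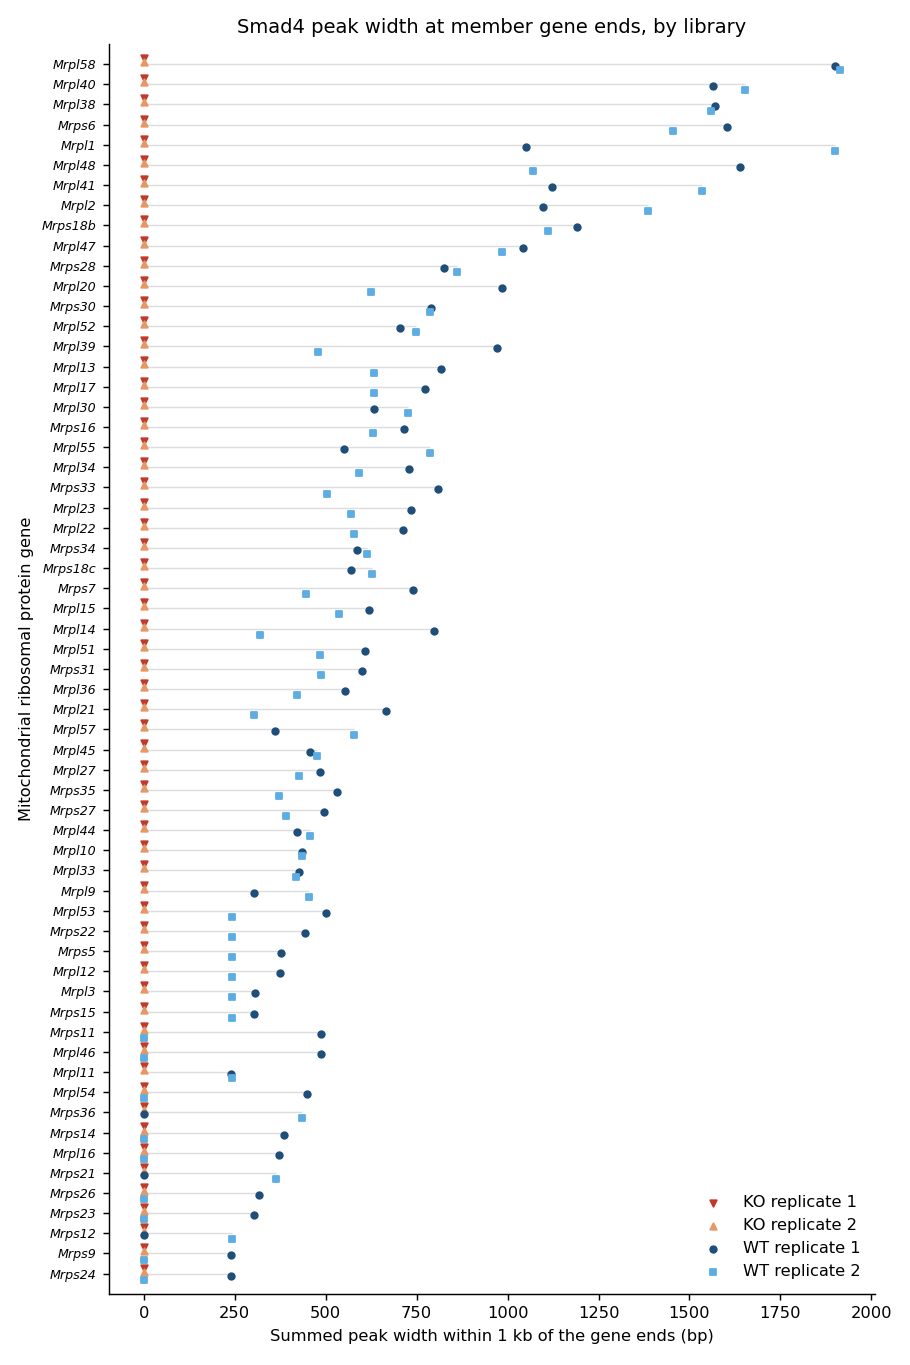
Summed width of the peaks within 1 kb of the gene ends (x axis, bp) for the 61 mitochondrial ribosomal protein genes with a peak of at least 1 WT library there (y axis), with 1 symbol per library; symbols are shifted vertically within a gene so that they can be seen. All KO symbols sit at 0, the widest WT values are 1900 and 1914 bp at Mrpl58, and at 12 of the lowest genes 1 WT library is also at 0.

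Peak width served as the measure of size, since the lists hold no other. Across the 49 genes with peaks in both WT lists, the summed widths of WT replicates 1 and 2 had a Spearman correlation of 0.803, given as a description, since both lists share the genes and their neighbourhoods. The width was larger in WT replicate 1 in 33 of the 49. The median width of single peaks at member ends was 540 and 504 bp in WT replicates 1 and 2, against 560 and 536 bp for peaks at the ends of all coding genes. The smallest width a list contains, 240 bp in WT replicate 1 and 242 bp in WT replicate 2, was that of 6.25% and 17.9% of the member peaks, against 12.4% and 12.9% over all coding gene ends. The 53 WT-only regions at member ends ran from 255 to 2059 bp with a median of 658 bp, against 758 bp for the 5731 WT-only regions at coding gene ends.

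The 12 members with the largest summed peak width at both gene ends, over both WT libraries, were 9 large-subunit and 3 small-subunit genes. Large-subunit genes made up 51 of the 78 members and 35 of the 49 with a WT-only region at an end. Mrpl58 encodes a peptidyl-tRNA hydrolase that releases stalled chains and is built into the ribosome. It had 0 bp in both KO libraries, against 1900 and 1914 bp in WT replicates 1 and 2, in a region over its start (chromosome 11, 115403554 to 115404122, mm10 here and throughout) and a wider region just past its other end (115412677 to 115414093). Mrpl40 had 0 bp in both KO libraries, against 1564 and 1654 bp in WT, all in a region over its start (chromosome 16, 18876269 to 18877940). For Mrpl38 the widths were 0 and 0 bp in KO and 1570 and 1558 bp in WT, with a region at each end of the gene (chromosome 11, 116130183 to 116131200 and 116138517 to 116139158). At these 3 genes the WT libraries differed little from each other.

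At other wide members the WT libraries were further apart. Mrpl1, whose product has a relative in the bacterial ribosome stalk, had 0 and 0 bp in KO, against 1050 and 1900 bp in WT replicates 1 and 2. Mrpl48 had 0 and 0 bp in KO, against 1640 and 1070 bp in WT, and 2 more WT-only regions lay inside this gene (chromosome 7, 100582731 to 100583290 and 100590540 to 100591369). For Mrpl41 the values were 0 and 0 bp in KO and 1122 and 1534 bp in WT. Which WT library gave the wider peak changed from gene to gene among these 3.

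Mrpl2, whose bacterial relative lies at the peptidyl transferase centre, had 0 and 0 bp in KO and 1098 and 1386 bp in WT, in a region over its start (chromosome 17, 46645506 to 46646534) and another at its other end. Mrpl47 had 0 and 0 bp in KO, against 1042 and 984 bp in WT. Mrpl20, relative of an early assembly protein of bacterial ribosomes, had 0 and 0 bp in KO and 984 and 624 bp in WT, in a region that began 173 bp inside the gene. In all, 9 members had at least 1000 bp in each WT library.

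Values are also given for the factor-binding stalk and for Mrpl45, which were not among the 12 widest. The stalk that recruits translation factors is formed by the products of Mrpl10 and Mrpl12 beside that of Mrpl11. Mrpl10 had 0 and 0 bp in KO, against 436 and 434 bp in WT, and Mrpl12 had 0 and 0 bp in KO, against 374 and 242 bp in WT. Mrpl11 had 0 and 0 bp in KO and 240 and 242 bp in WT, the smallest width of each list. Mrpl45, which encodes a protein at the inner membrane side of the ribosome, had 0 and 0 bp in KO, against 458 and 476 bp in WT. Of the 51 large-subunit genes, which include Mrps18a and Mrps30 by the place of their products, 35 (68.6%) had a WT-only region at an end, 21 of 30 with a bacterial relative and 14 of 21 specific to mitochondria.

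Among the 26 small-subunit genes, 14 (53.8%) had a WT-only region at an end, 8 of 17 with a bacterial relative and 6 of 9 specific to mitochondria. Mrps6 had 0 and 0 bp in KO, against 1604 and 1454 bp in WT, in a region over its start (chromosome 16, 92057764 to 92059367). Mrps18b had 0 and 0 bp in KO and 1190 and 1110 bp in WT (chromosome 17, 35916051 to 35917240). The end of Mrps28 had 0 and 0 bp in KO, against 826 and 860 bp in WT. Each of these genes had similar widths in both WT libraries. The gap between the subunits' shares was not tested, and genes are not replicates.

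Peaks of 1 WT library alone lay at the ends of 12 members, 9 from the longer WT list and 3 from the shorter. WT replicate 1 alone had peaks at Mrpl16, Mrpl46, Mrpl54, Mrps9, Mrps11, Mrps14, Mrps23, Mrps24 and Mrps26, with summed widths of 240 to 486 bp. Mrpl46 and Mrps11, whose ends lie 42 bp apart, shared 1 peak of 486 bp. WT replicate 2 alone had peaks at Mrps12, whose product lies at the decoding centre, at Mrps21 and at Mrps36, with 242, 364 and 436 bp. Mrps36 is named as a ribosomal protein, but its product belongs to the oxoglutarate dehydrogenase complex. Over all coding genes, 9.46% had a peak of 1 WT library alone at an end. Without WT replicate 2 the number of members with a WT-only region at an end was 58, and without WT replicate 1 it was 52.

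No library had a peak at the ends of 17 members, against 60.5% of all coding genes, and 8 members held no peak of any library in the body and 10 kb on both sides, whereas 44.1% of all coding genes held none. The 5 longest of the 8 were Mrpl42, Mrps18a, Mrps25, Mrps10 and Mrpl37.

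**Figure D2:**
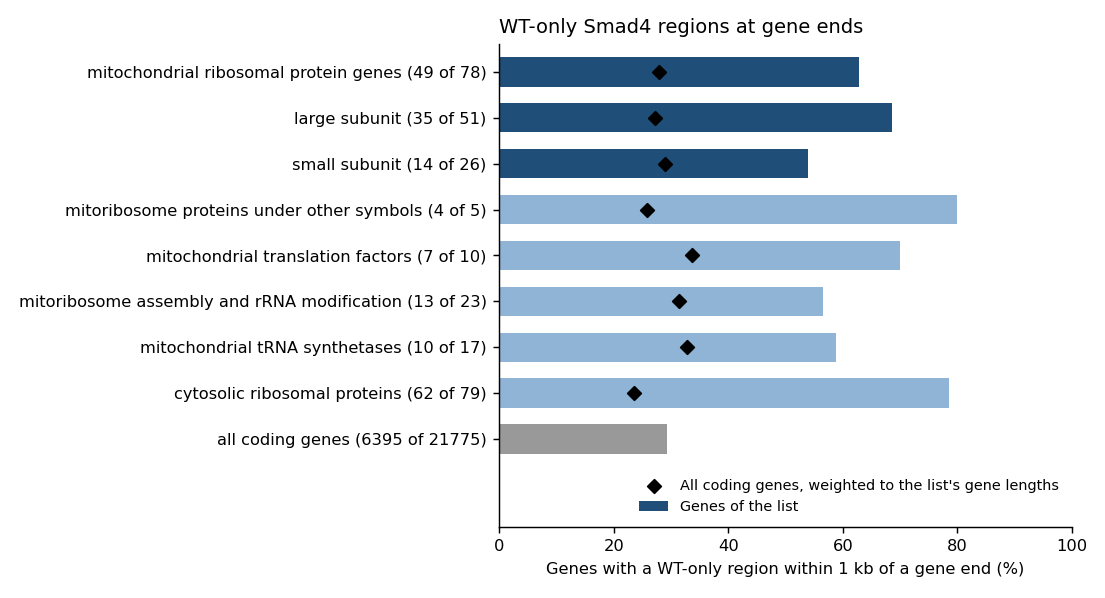
Share of genes with a WT-only Smad4 region within 1 kb of a gene end (x axis, %) for the mitochondrial ribosomal protein genes and their subunits (dark bars), other lists (light bars) and all coding genes (grey bar); diamonds give the share over all coding genes weighted to each list's gene lengths. The dark bars stand at 62.8%, 68.6% and 53.8%, and the diamonds between 23.6% and 33.7%.

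In 4 other lists for mitochondrial translation, the share ran from 56.5% to 80.0%. Of 5 mitochondrial ribosomal proteins that go under other symbols (Dap3, Ptcd3, Chchd1, Aurkaip1 and Gadd45gip1), 4 had a WT-only region at a gene end. So did 7 of 10 translation factor genes, 13 of 23 genes for ribosome assembly and rRNA modification, and 10 of 17 mitochondrial tRNA synthetase genes. The length-weighted shares of all coding genes were 25.8%, 33.7%, 31.4% and 32.8% for these 4 lists in the same order. Cytosolic ribosomal protein genes, the counterpart in the cytosol, had one at 62 of 79 (78.5%), against 23.6% after weighting by length. None of these 5 lists had a KO region at a gene end, where 0.505% of all coding genes had one, a share at which lists this short may hold none. In the body and 10 kb on both sides, 1 of 17 tRNA synthetase genes and 1 of 79 cytosolic ribosomal protein genes held one, against 2.42% of all coding genes. The shares of the lists were not tested against each other.

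Another coding gene had an end within 1 kb of an end of 44 of the 78 genes (56.4%), against 24.8% of all coding genes, and 29 of the 53 WT-only regions at member ends lay within 1 kb of a neighbour's end as well. Such a region cannot be given to a particular gene of the pair. The ends of Mrps6 and Slc5a3 lay 14 bp apart, those of Mrpl2 and Klc4 17 bp, those of Mrpl36 and Ndufs6, which encodes a subunit of respiratory complex I, 21 bp, and those of Mrps18b and Ppp1r10 72 bp. Mrpl40 and Hira, a histone chaperone gene, had ends 113 bp apart. A WT-only region lay at 29 of the 44 members with a shared end (65.9%) and at 20 of the 34 without (58.8%), against 48.1% of the coding genes with a shared end and 23.2% of those without.

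Regions at the members sat over gene starts. RefSeq starts with their strand and sequence (GRCm38.p6) were at hand for 69 of the 78 members and for 17491 coding genes. A WT-only region lay within 1 kb of the start in 43 of the 69 (62.3%), against 29.5% of all coding genes, and covered the start base itself in 40 (58.0%), against 25.8%. Among genes with a region at the start, the start base was covered in 93% of members and 87.4% of all coding genes. Lying over the start was thus common to such regions in general. At the other end of the gene, 5 of the 69 (7.25%) had a WT-only region, against 3.18%. In 3 of them (4.35%, against 2.59% of all coding genes) it was a region apart from the start, while Mrpl34 and Mrpl53 are shorter than the window and were counted with the region at their start. Mrpl22 had none at the start. Mrpl36 was also counted without one, here and for the motifs. Its region lay over a bound of the gene, at -2792 to -2135 bp from the start that the promoter sequences give. The centre of the region lay at a median of 33 bp before the start (-33 bp; 7 bp into the gene over all coding genes with one), and within 250 bp of it in 37 of the 43 members (86.0%), against 71.4% of the coding genes with a region at the start.

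**Figure D3:**
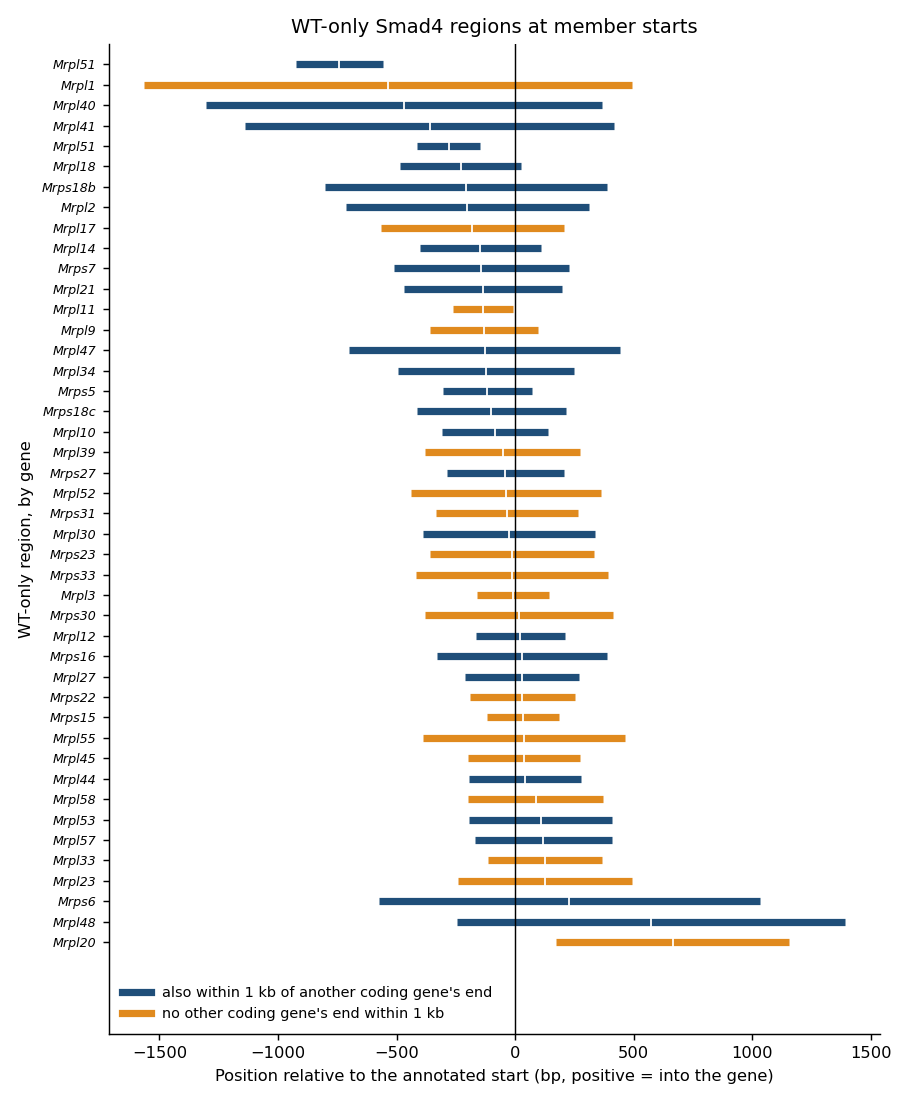
Extent of the 44 WT-only regions within 1 kb of the annotated start of 43 mitochondrial ribosomal protein genes (x axis, bp from the start, positive into the gene; y axis, genes ordered by the centre of the region, which is marked in white). Regions in blue (25) also lie within 1 kb of another coding gene's end, regions in orange (19) do not; nearly all bars cross the start, and those of Mrpl51, Mrpl11 and Mrpl20 do not.

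The sequences around the starts of 7 members are shown to set starts with a WT-only region beside starts without one. Each holds the 130 bases before the start and the first 20 bases of the transcript, the start base included. They run 5′ to 3′ on the gene's strand, from RefSeq's GRCm38.p6 sequence. Capitals mark CCGGAA, the core bound by ETS factors, on either strand. Among members with a region over the start in the promoter sequences, the first 3 have the largest summed peak width at both gene ends. The region over the start itself was 569 bp wide at Mrpl58, 1672 bp at Mrpl40 and 1604 bp at Mrps6. Mrpl58 thus ranks first through its other end, and the start regions of Mrpl1 (2059 bp) and Mrpl48 (1640 bp) are not shown. Mrpl33 is a start with few CpG that also had a region. The last 3 are the longest members without a peak of any library.
Mrpl58, chr11:115403622-115403771 (+ strand): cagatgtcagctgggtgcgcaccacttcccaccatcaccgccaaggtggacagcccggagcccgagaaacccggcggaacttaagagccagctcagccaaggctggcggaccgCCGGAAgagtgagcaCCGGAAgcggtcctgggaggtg
Mrpl40, chr16:18876618-18876767 (- strand): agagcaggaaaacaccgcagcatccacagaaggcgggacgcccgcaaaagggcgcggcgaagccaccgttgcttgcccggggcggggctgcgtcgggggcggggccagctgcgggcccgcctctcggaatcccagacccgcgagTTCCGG
Mrps6, chr16:92058206-92058355 (+ strand): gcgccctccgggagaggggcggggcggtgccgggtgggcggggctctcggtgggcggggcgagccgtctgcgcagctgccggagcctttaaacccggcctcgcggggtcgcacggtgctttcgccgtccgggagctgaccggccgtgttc
Mrpl33, chr5:31613821-31613970 (+ strand): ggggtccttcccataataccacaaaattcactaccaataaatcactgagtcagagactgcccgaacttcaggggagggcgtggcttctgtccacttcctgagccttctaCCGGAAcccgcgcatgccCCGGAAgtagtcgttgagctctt
Mrpl42, chr10:95501930-95502079 (- strand): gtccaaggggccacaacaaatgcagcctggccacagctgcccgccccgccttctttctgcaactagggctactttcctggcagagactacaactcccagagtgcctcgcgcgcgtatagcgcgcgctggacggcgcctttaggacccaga
Mrps18a, chr17:46110874-46111023 (+ strand): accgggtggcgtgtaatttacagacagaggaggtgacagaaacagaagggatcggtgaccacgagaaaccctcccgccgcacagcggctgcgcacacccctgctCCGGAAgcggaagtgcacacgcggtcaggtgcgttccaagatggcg
Mrps25, chr6:92184004-92184153 (- strand): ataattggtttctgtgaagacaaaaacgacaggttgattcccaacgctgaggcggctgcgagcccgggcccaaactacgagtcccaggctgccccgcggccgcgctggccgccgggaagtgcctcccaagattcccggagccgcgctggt
Mrpl58 and Mrpl33 each held the ETS core at 2 places next to the start, and Mrpl40 at 1. In the bases shown, the core was absent from Mrps6, which had a wide region, and present in Mrps18a, which had none. In these 7 the core thus went with a region at some genes and not at others.

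Of the 9 motifs searched, the ETS core CCGGAA was the one in which member promoters stood furthest, in percentage points, from all promoters. In the 300 bases from 250 before to 50 after the start, it was found on either strand in 39 of the 69 members (56.5%), against 19.1% of all 17491 promoters. It was found in 29 of the 43 members with a WT-only region at the start (67.4%), and in 10 of the 26 without (38.5%). Over all coding genes these shares were 34.4% with a region at the start and 12.7% without. Of the 53 cores in member promoters, 69.8% began within 50 bp of the start, against 52.2% of the cores in all promoters. A region at the start was found in 74.4% of the 39 members with the core and in 46.7% of the 30 without it, against 53.2% and 24.0% of all coding genes with and without it. A match of letters is a description and does not show that a factor was bound there.

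Between members with and without a region at the start, the shares with SMAD motifs differed in direction. These differences rest on few genes and were not tested. The SMAD box CAGAC was found in 24 of 43 members with a region at the start (55.8%) and in 16 of 26 without (61.5%), against 48.8% of all promoters. For the GC-rich SMAD motif GGCGC it was 27 of 43 (62.8%) and 19 of 26 (73.1%), against 46.8%. For GGCCG it was 33 of 43 (76.7%) and 13 of 26, against 43.6%. Over all coding genes with and without a region at the start, GGCGC was found in 73.1% and 35.9%, GGCCG in 68.7% and 33.1%, and CAGAC in 47.4% and 49.3%. The YY1 core ATGGCG was found in 18.6% of members with a region and in 42.3% of members without, against 11.2% of all promoters. For the SP1 box GGGCGG these shares were 46.5% and 53.8%, against 46.3%. The NRF1 core GCATGCG, the motif of a regulator of nuclear genes for mitochondria, was found in 14.0% and 7.69%, against 4.49%. The CRE core TGACGTC (2.33% and 11.5%, against 3.98%) and the AP-1 site TGANTCA (4.65% and 3.85%, against 7.03%) were rare in all 3. All 9 motifs were searched on both strands, and their matches may overlap. The search used the sequence before and after the start alone, not the whole region.

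**Figure D4:**
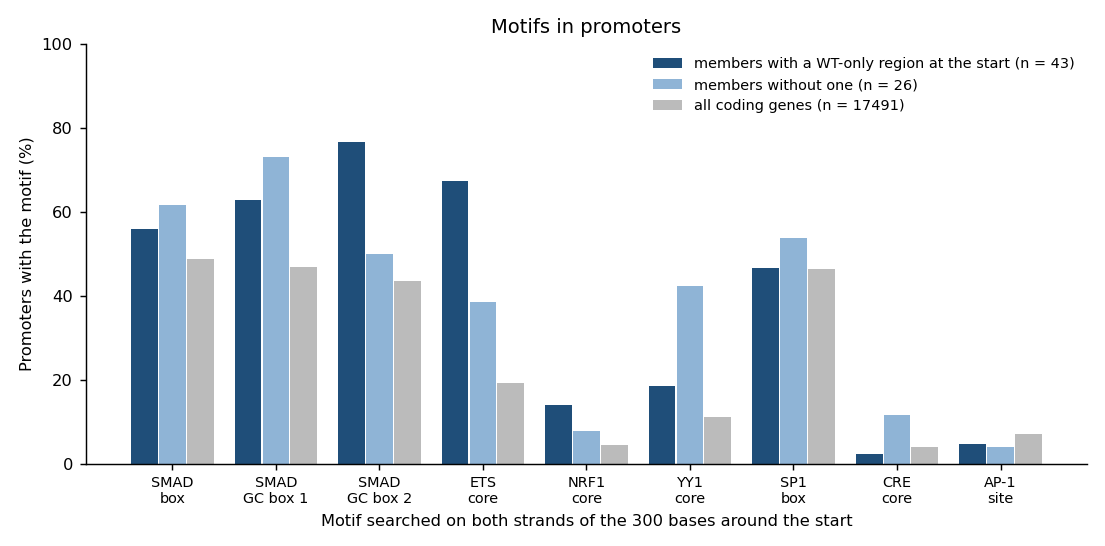
Share of promoters (y axis, %) with each of 9 motifs (x axis) in members with a WT-only region at the start (dark, n = 43), members without (light, n = 26) and all coding genes (grey, n = 17491); SMAD GC box 1 is GGCGC and SMAD GC box 2 is GGCCG. The ETS core stands at 67.4%, 38.5% and 19.1%.

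Base composition moved with these shares. Member promoters held a median of 21 CpG in 300 bases, against 13 in all promoters, and the members with a region at the start held 23, against 17.5 in the members without. Weighting all coding genes to the members' 10 groups of CpG number raised the share with a region at the start to 44.0%, against 29.5% unweighted, beside 62.3% in the members. Among promoters with 21 to 60 CpG, 27 of 37 members (73.0%) and 56.5% of all coding genes had a region at the start. With 11 to 20 CpG it was 13 of 29 members (44.8%) and 35.6% of all coding genes, and with 0 to 10 CpG 3 of 3 members (Mrpl44, Mrpl20 and Mrpl33) and 6.38%. With the same weights, 28.8% of all promoters held the ETS core, beside 56.5% in the members. For the GC-rich motifs, the members' excess over all promoters was small or turned round with these weights. GGCGC was found in 66.7% of members and 70.2% of weighted promoters, GGCCG in 66.7% and 62.9%, and the SP1 box in 49.3% and 68.2%. The YY1 core was found in 27.5% of members and 16.3% of weighted promoters, the NRF1 core in 11.6% and 6.96%, and CAGAC in 58.0% and 48.1%. The part of CpG number in these shares was not tested further.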

How the data were processed

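The values are peak positions, 1 list for each of 4 ChIP libraries, used as the authors deposited them, without heights. Trim Galore, Bowtie, HOMER 4.8.3 and mm10 are named in the submitters' processing notes, without roles. Calling thresholds, input use and read depth were not given in the sources used here. The 4 input samples were not analysed here.

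Positions are 1-based on mm10. Gene bounds came from RefSeq on GRCm38.p6, the same assembly. Of 21896 coding genes, 21775 were kept. Genes without a position on an autosome, X or Y, those with starts under 3 Mb (Y excepted) and repeated entries were left out. Peaks sharing 1 bp or more were joined into regions, and WT-only means called in both WT lists and in neither KO list. Distinct peak numbers were compared by an exact 2-sided permutation test of log2(number + 1). Shares have no test; gene length and promoter CpG number were taken in 10 groups each. Counting was checked on simulated peaks. Members and lists were chosen with earlier results of these data known. The text names the 12 members with the largest summed width of WT peaks at gene ends, and members with a KO peak. Members with a peak of 1 WT library alone and the 5 longest without a peak are named as well. Other genes were chosen after their values were seen. Alternatives were other windows, overlaps and peak sets, autosomes, genes without shared ends, each library left out and replicate pairing; promoter starts and CpG groups were added after seeing the data. The work was done in Python 3.11.15, numpy 2.4.6, pandas 2.3.3, SciPy 1.17.1 and matplotlib 3.10.9.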

Additional observations from a re-analysis of the deposited data

How the results depend on the processing

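The number of members with a WT-only region at a gene end stayed between 44 and 51 with region centres, windows of 500 bp or 5 kb, 50% overlap of the WT peaks, a KO margin of 1 kb or autosomes only. With the wider 50% of each list it was 30, with 34 in the body and 10 kb on both sides, and the difference from the length-weighted share was 20.8 percentage points (38.5%, against 17.7%). Leaving out genes that share an end left 34 members, of which 20 had a WT-only region at an end and 23 in the body and 10 kb on both sides, since fewer genes were counted. At the starts of the 69 members with promoter sequence, CpG groups in place of gene length gave a difference of 18.3 points (62.3%, against 44.0%); the length-weighted share at those starts was 27.1%. Leaving out a library gave 49 to 58 members at gene ends, 58 to 68 in the body and 10 kb on both sides, 0 to 1 members with a KO region, the lower without KO replicate 2, and differences of 34.7 to 39.4 points. KO peak numbers stayed below WT in every alternative run. With the replicate block the difference of log2 values was -5.93 at ends and -6.22 in the body and 10 kb on both sides (exact sign-flip p = 0.5, the smallest possible with 2 pairs); the library numbers are not stated to mark a shared animal or day, and over the 526 genes with a KO peak the same-numbered libraries' deviations had a correlation of -0.0837. Unknown read depth limits any reading of an absent peak.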

Other observations

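Away from the members' own ends, 29 WT-only regions lay in the body or within 10 kb, 6 of them with the centre inside the gene. A neighbour's end lay within 1 kb of 14 of the 29. Of the 9 members whose WT-only regions all lay away from their ends, 8 had such a region at a neighbour's end. The region of Mrpl35 lay over an end of Immt, which encodes an organiser of mitochondrial cristae (chromosome 6, 71830986 to 71831813), and that of Mrps17 over an end of Nipsnap2 (chromosome 5, 129724718 to 129725324). At Mrps21 the region lay over an end of Prpf3, a splicing factor gene. The remaining member, Mrps23, had its region over the start that the promoter sequences give (chromosome 11, 88204031 to 88204719), which lies inside the bounds of the gene. Mrpl18 had a region over such a start as well (chromosome 17, 12916066 to 12916575), which was also over an end of Tcp1, a chaperonin gene.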
